A study of Mus musculus with 6 samples.

Results

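Peaks in coding exons are the MeDIP-seq peaks whose summit, the base with the highest pileup, lay inside the coding sequence (CDS) of a protein-coding transcript and more than 500 bp from the start of any protein-coding transcript, on chromosomes 1 to 19 of the mm9 mouse genome with the GENCODE vM1 annotation. The 6 deposited peak lists held 43864 such peaks among their 567475 peaks on these chromosomes. Joining coding-exon peaks that shared at least 1 bp gave 14884 coding-exon regions, lying in 14879 of the 170444 regions formed by all peaks of the series.

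The samples were primary mesangial cells of the mouse, which hold the capillary loops of the kidney glomerulus together. There were 3 control samples and 3 that received TGF-β1 at 10 ng/ml for 72 h, called treated samples here. Both groups were grown in medium with 25.5 mM glucose and 20% foetal bovine serum and were used between passages 3 and 6. No genotype, strain, age or sex is used here, and the study calls the replicates biological, while the labels do not say whether they came from separate cultures. The p-values measure the spread between these samples, part of which may be technical. Peak lists hold no expression values, so the labelled cell type could not be checked against its markers. Peaks were called from 9407103 to 13291419 reads per sample, and each treated sample had more reads than any control sample, so in numbers of peaks the effects of depth and of treatment cannot be told apart.

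In mammalian cells cytosine methylation sits almost wholly on CpG dinucleotides, and bodies of genes, exons included, are often heavily methylated while CpG islands at promoters are mostly free of it. MeDIP pulls down fragments with an antibody against methylated cytosine, so that its signal depends both on the share of CpGs that are methylated and on how many CpGs a fragment holds. TGF-β1 is a cytokine that drives mesangial cells to produce extracellular matrix in diabetic kidney disease, and the study asked whether it changes DNA methylation in them.

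The following reference windows of 120 bp (mm9, 5′ to 3′ on the strand of the gene, CpG in capitals) show what lies under a coding-exon summit. The first 3 are centred on the summits of the coding-exon regions with the highest mean fold enrichment over the local background among those called in all 6 samples.
Rab22a, chr2:173486925-173487044, plus strand: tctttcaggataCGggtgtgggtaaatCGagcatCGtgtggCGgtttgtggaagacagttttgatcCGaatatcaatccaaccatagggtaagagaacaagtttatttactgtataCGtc
Aff4, chr11:53213581-53213700, plus strand: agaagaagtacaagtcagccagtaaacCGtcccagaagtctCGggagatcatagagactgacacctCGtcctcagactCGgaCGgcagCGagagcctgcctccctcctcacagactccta
Ercc6, chr14:33354355-33354474, plus strand: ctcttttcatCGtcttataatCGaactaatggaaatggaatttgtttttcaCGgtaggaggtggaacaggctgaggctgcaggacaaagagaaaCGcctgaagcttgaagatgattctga
These windows hold 6, 6 and 4 CpGs, of which the Rab22a and Ercc6 windows take in only 80 and 63 bases of the exon itself, the rest being flanking intron. The next 3 windows are centred on regions that carry the comparison of the groups, namely the region with the smallest p among those lower after treatment (Adamts16) and those with the highest pileup among regions called in 1 group only (Pcnxl2 and Ubr2).
Adamts16, chr13:70939665-70939784, minus strand: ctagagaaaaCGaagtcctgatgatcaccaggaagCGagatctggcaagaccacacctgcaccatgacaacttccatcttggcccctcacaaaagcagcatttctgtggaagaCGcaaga
Pcnxl2, chr8:128386982-128387101, minus strand: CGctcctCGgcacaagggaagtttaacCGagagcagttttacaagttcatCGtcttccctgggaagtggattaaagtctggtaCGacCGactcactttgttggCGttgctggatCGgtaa
Ubr2, chr17:47098528-47098647, minus strand: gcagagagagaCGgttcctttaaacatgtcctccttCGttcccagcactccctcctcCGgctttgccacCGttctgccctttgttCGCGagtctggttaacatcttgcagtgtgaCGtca
Their CpG numbers are 3, 8 and 7. The last 2 windows, picked after their values were seen, are the middles of coding stretches without any coding-exon peak in the 6 lists, 1 with almost no CpG and 1 very rich in it.
Ahnak, chr19:9084915-9085034, plus strand: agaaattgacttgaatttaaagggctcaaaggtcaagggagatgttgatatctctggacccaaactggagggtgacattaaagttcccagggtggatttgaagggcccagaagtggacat
Hoxa10, chr6:52184137-52184256, minus strand: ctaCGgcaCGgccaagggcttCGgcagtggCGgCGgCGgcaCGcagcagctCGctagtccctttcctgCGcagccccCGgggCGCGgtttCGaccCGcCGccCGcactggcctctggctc
The Ahnak window has 0 CpGs and the Hoxa10 window 16.

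The number of coding-exon peaks varied more between files than between groups. Control replicates 1, 2 and 3 had 4926, 7172 and 8640 coding-exon peaks, and TGF-β1 replicates 1, 2 and 3 had 7598, 8465 and 7063. The treated samples all lay inside the range of the control samples. The control mean was 6913 ± 1871 and the treated mean 7709 ± 707.5 (SD, n = 3 each) (p = 0.7 by an exact two-sided permutation test, Benjamini-Hochberg adjusted p of 1 over 5 measures). No p below 0.1 is possible with 3 samples against 3. Per 1000000 reads the direction turned, with 663.8 ± 161.6 coding-exon peaks in control and 599.1 ± 69.36 in treated samples, and without control replicate 1 the difference of the raw numbers was -197.3 peaks in place of 796. As a share of the peaks of a sample, coding exons held 6.16%, 8.11% and 8.80% in control and 7.64%, 8.63% and 6.83% in treated samples, with group means of 7.69% ± 1.37 and 7.70% ± 0.897 (exact permutation p = 1).

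**Figure D1:**
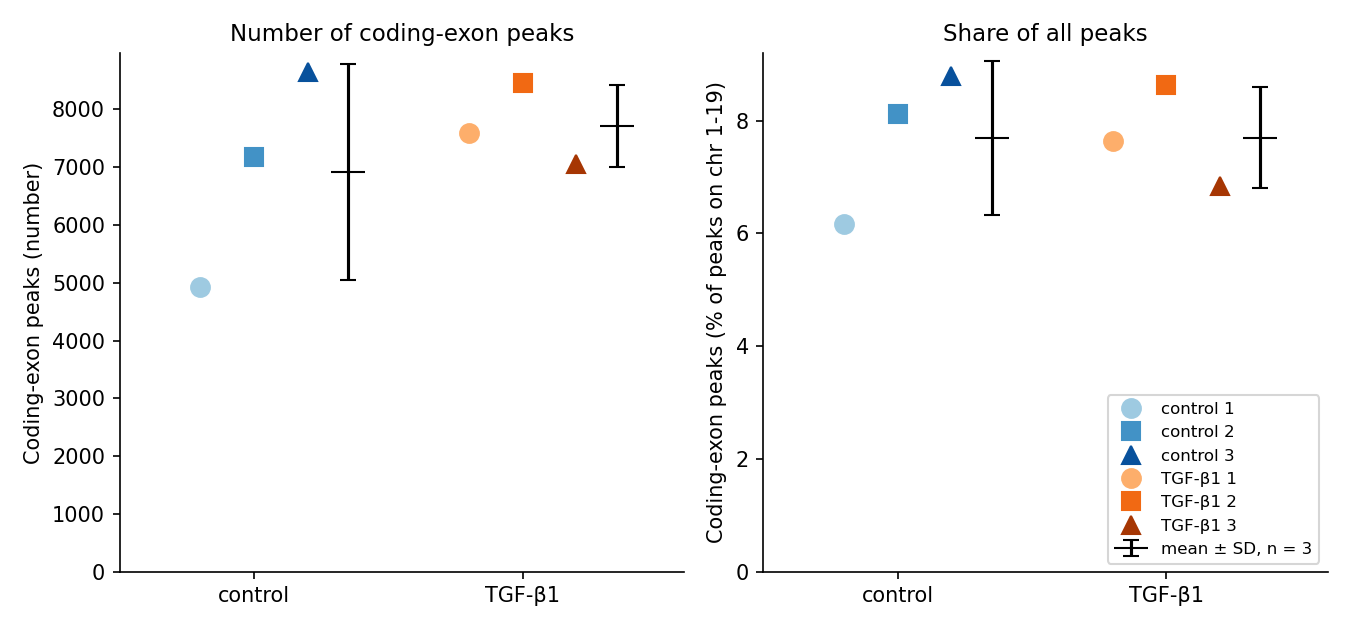
Number of coding-exon peaks (left) and their share of all peaks on chromosomes 1 to 19 in percent (right), with 1 point per sample and black bars for the group mean ± SD (n = 3). Control replicate 1 is the lowest sample on both axes (4926 peaks and 6.16%), control replicate 3 the highest (8640 peaks and 8.80%), and all treated samples lie between them.

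This spread was wider for coding exons than for the other gene elements. The file with the most coding-exon peaks had 1.75 times as many as the file with the fewest, against 1.63 times for peaks within 500 bp of a transcript start (promoter peaks), 1.38 times for untranslated exons, 1.29 times for introns and 1.27 times between genes. Without control replicate 1, an alternative chosen after seeing the data, these ratios drew together at 1.22 for coding exons, 1.17 for promoters and between genes, and 1.21 for untranslated exons and introns. The files at the ends also differed in base composition. The median GC content in the 200 bp around coding-exon summits stood at 50.5% for control replicate 1 and 51.5% for TGF-β1 replicate 3, which had the smallest shares of coding-exon peaks, and 53.0% to 54.0% in the other 4. Over all peaks the same median ran from 48.5% in control replicate 1 to 50% in control replicate 3. The part of base composition in the number of coding-exon peaks was not tested.

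The share of exons with a peak varied with their CpG density, although most exons had no peak at any density. For this, 118729 exons with at least 100 bp of eligible CDS (CDS more than 500 bp from any start) were grouped by their CpGs per 100 bp. Of exons with up to 1 CpG per 100 bp, 0.114% ± 0.00810 (SD, n = 6) had a coding-exon peak in a sample. The share was 1.38% at 1 to 2, 4.79% at 2 to 3 and 9.16% at 3 to 4 CpGs per 100 bp, and it stood at 13.7% ± 3.38 in the 18094 exons with 4 to 6. It did not rise further, with 12.1% ± 4.33 at 6 to 8, and it was 2.66% ± 1.33 in the 1741 exons with more than 8 CpGs per 100 bp, whose median length was 447 bp. Peaks were thus called most often in exons of middle to high CpG density and rarely in the richest ones.

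The files agreed at low CpG density and parted at high density. In exons with up to 1 CpG per 100 bp the highest file was at 1.23 times the lowest, and control replicate 1 (0.120%) stood above both other control samples. At 4 to 6 CpGs per 100 bp the ratio was 2.20, with 7.86% in control replicate 1 and 17.3% in control replicate 3. At 6 to 8 it was 3.21, with 5.51%, 11.7% and 17.7% in control replicates 1, 2 and 3, and 11.97%, 15.8% and 9.74% in TGF-β1 replicates 1, 2 and 3. In the richest exons it was 6.50, from 0.689% in control replicate 1 to 4.48% in control replicate 3. Much of this parting rests on control replicate 1: over the other 5 files, a choice made after seeing the data, the ratios were 1.40, 1.82 and 2.60 in these 3 bins, against 1.23 in the poorest one. The order of the 6 files was the same in the bins at 4 to 6 and 6 to 8 CpGs per 100 bp, and in both the groups overlapped, with control replicates at either end.

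**Figure D2:**
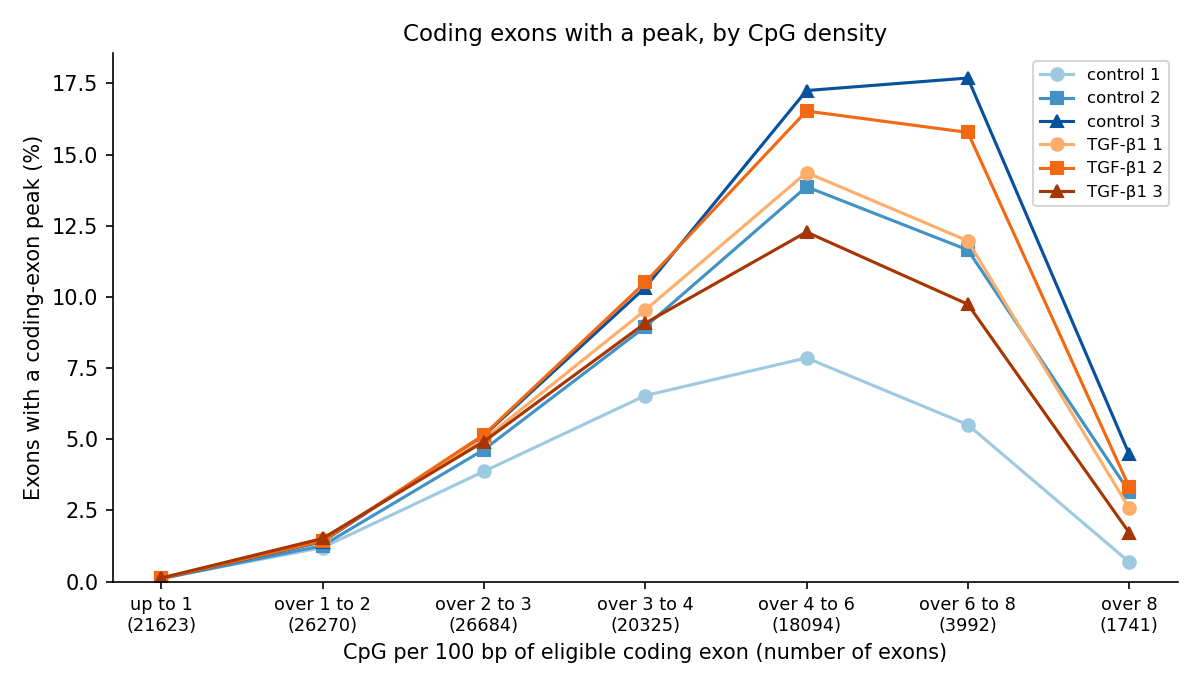
Share of coding exons with a coding-exon peak in percent (vertical) in 7 bins of CpG density of the eligible exon sequence (horizontal, number of exons in brackets), with 1 line per sample. The lines run together up to 2 CpGs per 100 bp, spread to between 5.51% and 17.7% at 6 to 8, and fall to between 0.689% and 4.48% above 8.

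Coding sequence held far more peaks than its length would give. Eligible CDS came to 30.19 Mb, or 1.22% of chromosomes 1 to 19, and peaks per Mb in it were 6.30 ± 0.846 times (SD, n = 6) the number per Mb over all of these chromosomes, from 5.05 in control replicate 1 to 7.20 in control replicate 3. CpGs were also denser there, at 5.43 per 200 bp of eligible CDS against 1.65 per 200 bp over chromosomes 1 to 19. The values over chromosomes 1 to 19 used their full length. Gaps and sequence where reads cannot be placed uniquely were not taken out, so the ratio of peaks per Mb may be too high. The part of CpG density in the peak density was not tested.

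Peaks lay mostly in internal exons, as coding bases do. Internal exons held 76.8% ± 0.735 of coding-exon peaks (SD, n = 6) and 75.2% of eligible CDS, and last exons held 20.1% ± 0.639 of peaks and 18.7% of eligible CDS. The share in the last exon was 19.6%, 20.0% and 20.5% in control replicates 1, 2 and 3 and 20.4%, 20.98% and 19.2% in TGF-β1 replicates 1, 2 and 3, so the groups overlapped (difference 0.195 percentage points, exact permutation p = 0.8). Per Mb of eligible CDS, internal exons had 247.1 ± 43.6 and last exons 260.8 ± 53.6 peaks, and last exons were denser in 5 of the 6 files (mean difference 13.7 ± 12.5 peaks per Mb). First exons, of which little remains beyond 500 bp from a start, had 168.3 ± 46.9 peaks per Mb although their eligible bases were the richest in CpG, with 5.19 per 100 bp against 2.65 in internal exons. Genes without introns had the lowest density, 100.9 ± 17.6 peaks per Mb at 2.25 CpGs per 100 bp. Along the coding sequence cut into 3 equal parts the density was even, with 241.8, 246.3 and 238.6 peaks per Mb from 5′ to 3′.

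By exon length, peak density was lowest in the shortest exons. The median length of the exon under a summit was 200, 209 and 213 bp in control replicates 1, 2 and 3 and 207.5, 212 and 199 bp in TGF-β1 replicates 1, 2 and 3 (difference of means -1.17 bp, exact permutation p = 0.7), against 198 bp over all eligible coding bases. Exons of up to 100 bp had 152.3 ± 18.4 peaks per Mb of eligible CDS (SD, n = 6), those above 200 and up to 300 bp had the most, 298.6 ± 65.7, and those above 3000 bp had 246.5 ± 46.1. In every file the density in this class was above that at up to 100 bp. Peaks are longer than most exons: 79.4% ± 0.778 of coding-exon peaks ran beyond their exon, and the median distance from summit to the nearest exon edge was 58 to 63 bp. Reads from the flanking introns therefore enter the pileup of most coding-exon peaks.

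**Figure D3:**
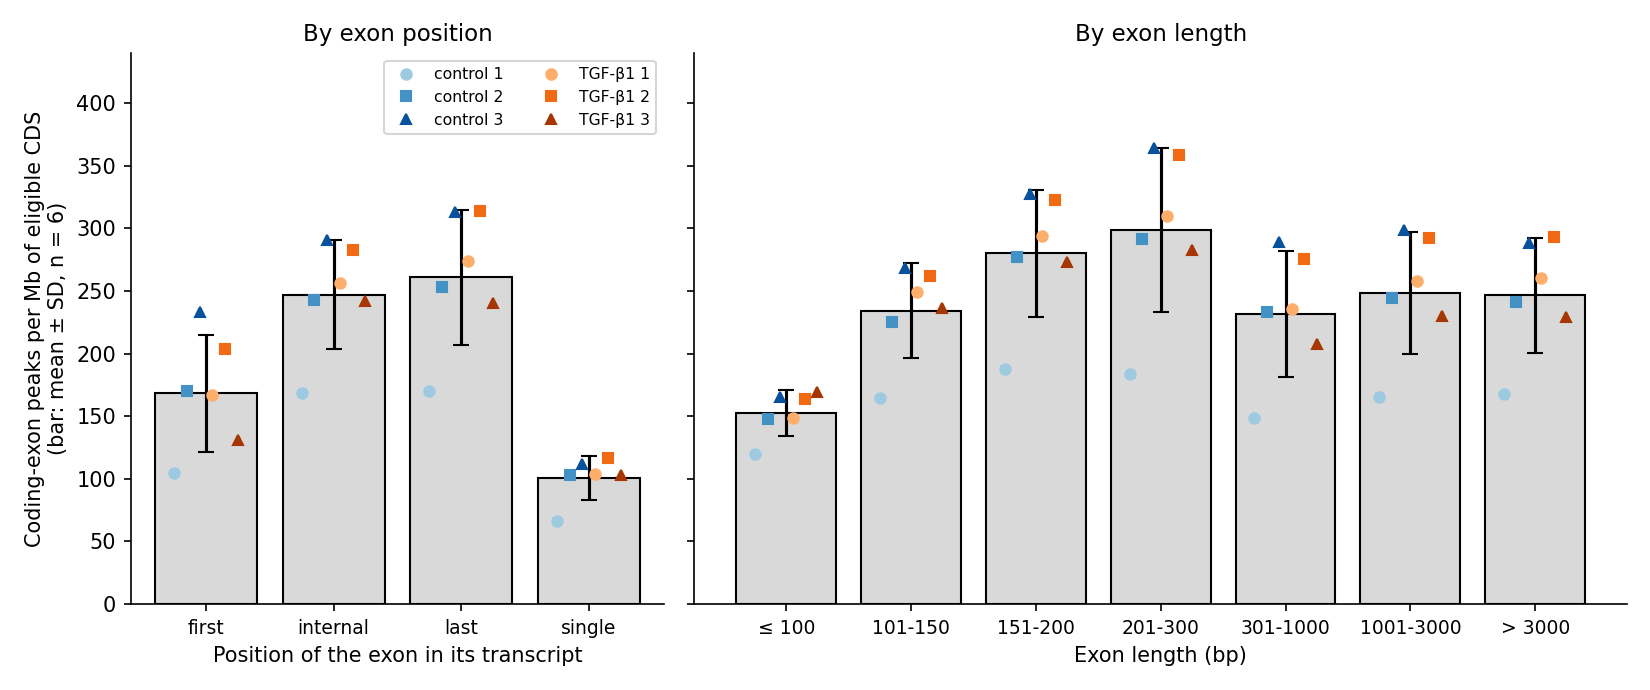
Coding-exon peaks per Mb of eligible CDS (vertical) by position of the exon in its transcript (left) and by exon length in bp (right), as the mean ± SD of the 6 samples (grey bars) with 1 point per sample. Internal and last exons stand at 247.1 and 260.8 peaks per Mb and intronless genes at 100.9, and by length the density runs from 152.3 in the shortest exons to 298.6 above 200 and up to 300 bp.

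By chromosome, coding-exon peaks were densest on chromosomes 8, 18 and 10, with 361.7 ± 69.2, 352.2 ± 53.1 and 334.3 ± 51.0 peaks per Mb of eligible CDS (SD, n = 6), and sparsest on chromosome 7, with 153.5 ± 39.95. Chromosome 8 also had the highest CpG density of eligible CDS, 3.15 per 100 bp, whereas chromosome 7, at 2.68, was close to the value over all eligible CDS, 2.71. The lowest file on chromosome 8 (242.8 peaks per Mb) lay above the highest on chromosome 7 (196.0).

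Within each sample, coding-exon peaks were compared with intron and promoter peaks of the same sample in 6 measures, 12 comparisons in all (exact two-sided sign-flip tests over 6 samples, smallest possible p = 0.031). The mean number of CpGs in the 200 bp around the summit was 7.68 ± 0.319 (SD, n = 6) for coding-exon, 5.89 ± 0.164 for intron and 6.87 ± 0.317 for promoter peaks. The median fold enrichment over the local background was 6.29 ± 0.143 for coding-exon, 6.08 ± 0.144 for intron and 6.18 ± 0.138 for promoter peaks. Coding-exon peaks were higher than both in all 6 samples for these measures as well as for median GC content, median pileup per 1000000 reads and median peak length (exact sign-flip p = 0.031 and adjusted p = 0.03409 in each of these 10 comparisons). Peaks between genes were not tested. Their median fold enrichment was 6.30 ± 0.166 (SD, n = 6), level with coding exons, so this enrichment was not particular to coding-exon peaks. Their means were lower for CpGs (6.48), GC content (49.2%), pileup per 1000000 reads (1.77) and peak length (349.8 bp). The differences were small beside the level itself for fold enrichment (0.21 against introns and 0.12 against promoters) and for peak length (12.3 bp and 3.17 bp). With only peaks of at least 5-fold enrichment, the comparisons with promoters no longer passed for fold enrichment (0.0624, exact sign-flip p = 0.125) and peak length (3 bp, exact sign-flip p = 0.0625). The share of peaks with a peak of every other sample was 42.8% ± 8.52 for coding-exon and 41.9% ± 4.04 for intron peaks, higher in 3 samples and lower in 3, and 40.6% ± 7.43 for promoter peaks, lower in 6 of 6 samples. For peaks between genes it was 45.3% ± 4.145. The peaks shared by all 6 files enter the share of every file, so the differences in this share are not independent between samples and no p is given for them. Shared peaks enter the other measures too, so their differences are not fully independent either, and their p-values may be too small. With 2000 bp in place of 500 bp from a start in the definition of both coding-exon and promoter peaks, the difference between them was 2.53 percentage points.

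Joined across files, a sample was counted as having a coding-exon region when any of its peaks overlapped the region by at least 1 bp, also where the summit of that peak lay outside the CDS, and the pileup of a region in a sample is the highest of these peaks. Of the 14884 regions, 3959 (26.6%) were called in all 6 samples and 2825 (18.98%) in 1 sample only. Counted over the joined regions of the whole series, the share called in all 6 samples was 26.9% of coding-exon, 22.8% of intron, 23.4% of promoter and 24.5% of all regions, and the share called in 1 sample was 18.99%, 28.6%, 23.1% and 27.3%. A region counts as coding-exon, intron or promoter when any of its peaks is of that kind. Regions with peaks in more samples thus have more chances to count, and the part of this in the shares was not tested. Counted per peak, the share with a peak of every other sample was 42.8% for coding exons and 41.9% for introns. Weak regions pass the calling threshold in fewer samples, so strength and number of calls are linked by construction. The median of the mean fold enrichment was 5.27 in regions called in 1 sample and 7.21 in those called in all 6. Exon position hardly moved along this scale, with 17.8% in last exons among regions called in 1 sample and 19.4% among those called in all 6.

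**Figure D4:**
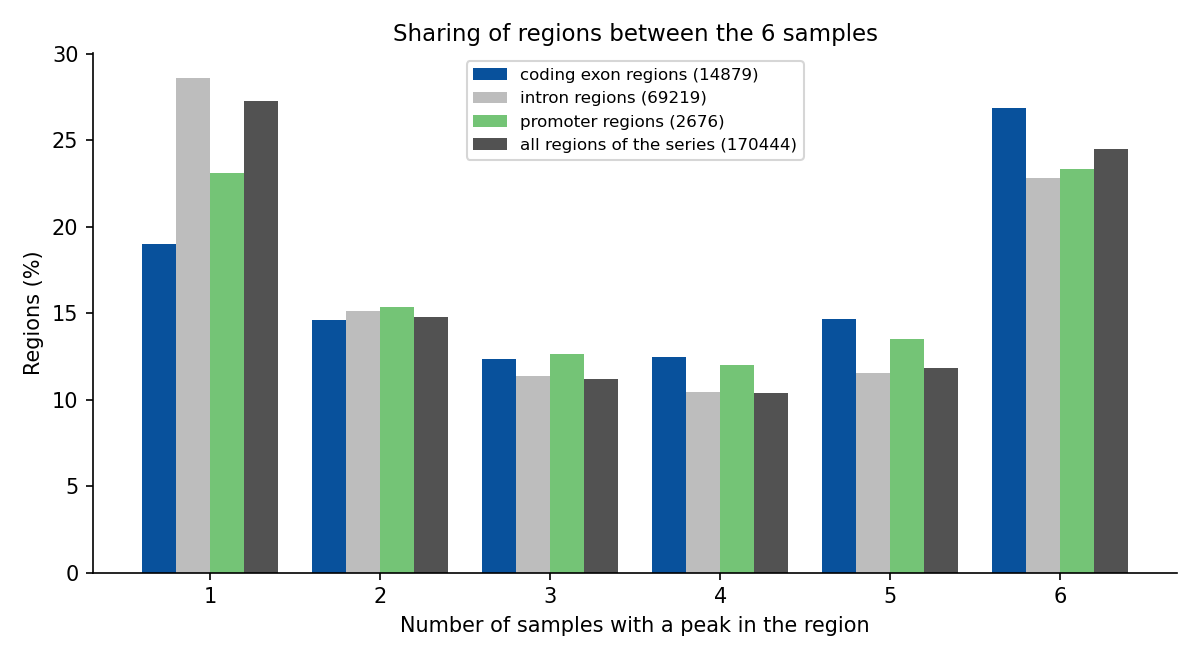
Share of regions in percent (vertical) by the number of samples with a peak in them (horizontal), for regions holding coding-exon, intron or promoter peaks and for all regions of the series, with the number of regions in brackets. Coding-exon regions have the lowest bar at 1 sample (18.99%) and the highest at 6 samples (26.9%). Regions with peaks in more samples had more chances to hold a peak of a given kind.

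Control replicate 1 stood apart in the calls of coding-exon regions. It lacked 1261 regions that the other 5 samples all had, whereas each of the other samples lacked 98 to 354 such regions. Control replicate 3 had the most regions of its own, 825, against 250 to 552 in the others. Of regions called in either of a pair of samples, 66.9% were shared by control replicate 3 and TGF-β1 replicate 2, the closest pair, and 44.2% by control replicates 1 and 3, the most distant. Control replicate 1 shared most with TGF-β1 replicate 3 (56.6%), so that likeness did not follow the groups.

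Coding-exon regions were found in 8626 of 20635 genes with eligible CDS (41.8%), and in 3253 genes (15.8%) at least 1 region was called in all 6 samples. Of the genes with a region, 5235 had 1, 1968 had 2 and 1423 had 3 or more, up to 36 in Ttn. Within a sample there were 1.29, 1.35 and 1.42 coding-exon peaks per gene hit in control and 1.39, 1.43 and 1.39 in treated samples (means 1.35 ± 0.0659 and 1.40 ± 0.0232, exact permutation p = 0.4). Genes with a region had more eligible CDS than genes without (medians 1.603 kb and 0.701 kb) and more CpG in it (medians 2.95 and 1.91 per 100 bp). A region was found in 10.3% of genes with up to 0.5 kb of eligible CDS and in 88.6% of those with over 8 kb, while regions per kb stayed between 0.41 and 0.52 in all length classes above 0.5 kb. Exons with several regions were rare: of 180156 eligible exons, 14695 (8.16%) held a region, 330 held 2 or more and 2 held 5 or more.

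The genes with the most coding-exon regions called in all 6 samples mostly encode very large proteins. Dst, which encodes dystonin, a linker of cytoskeletal filaments, had 9 such regions among 30, with 12, 18 and 20 coding-exon peaks in control replicates 1, 2 and 3 and 19, 19 and 17 in TGF-β1 replicates 1, 2 and 3. Itpr2, a calcium channel of the endoplasmic reticulum opened by inositol trisphosphate, had 8 among 15, with 10, 9 and 10 peaks in control and 7, 9 and 8 in treated samples. Fat1, a giant atypical cadherin, had 7 among 16, and 0 called in all 6 samples when only peaks of at least 5-fold enrichment were used. Drosha, the nuclease that cuts primary microRNA transcripts in the nucleus, had 7 among 9 in only 3.62 kb of eligible CDS, with 4, 4 and 6 peaks in control and 5, 4 and 6 in treated samples. The groups overlapped in Dst and Drosha, and in Itpr2 the lowest control sample equalled the highest treated sample. Ttn, the giant spring protein of muscle, had the most regions of all but 6 called in all 6 samples, and so did Fryl, Dnahc8, Pcdhgc5, Fry and Trio. With only peaks of at least 5-fold enrichment the number called in all 6 samples was 3 in Dst, 4 in Drosha, 2 in Ttn and 1 each in Fryl and Pcdhgc5, while it was 7 in Itpr2, 6 in Dnahc8 and 5 each in Fry and Trio. The order of the genes thus depends on this threshold. Pcdhgc5 stands here for the gamma protocadherin cluster, whose variable exons the annotation gives to shared gene models.

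Per kb of eligible CDS, among genes with at least 3 kb of it, Drosha had the densest set of regions called in all 6 samples, 1.94 per kb, which rests on 7 regions against 4 at a fold enrichment of at least 5. Lifr, the receptor of leukaemia inhibitory factor, had 1.27 per kb, with all 4 of its regions called in every sample. Wdr7, a WD-repeat protein, had 1.12, Atp2b1, a calcium pump of the plasma membrane, 1.09, and Itpr2 1.01. Ttn, with 107.9 kb of eligible CDS, had only 0.0556 per kb. The densest genes had 2.72 to 3.84 CpGs per 100 bp, at or above the 2.71 of all eligible CDS.

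The 10 longest exons with eligible CDS were ranked by full exon length, while peaks were counted only in their eligible CDS. That was 74 bp in Strbp, 106 bp in Eif2c3, 109 bp in Zfp704 and 126 bp in Lpp. The lack of coding-exon peaks in such short stretches says little about exon length. The longest, the last exon of Ahnak (chr19:9076189-9093685, 17497 bp), which encodes the repeats of a giant scaffold protein, had 14671 eligible bases and 0 coding-exon peaks in all 6 samples, at 0.320 CpG per 100 bp. Exon 309 of Ttn (chr2:76574121-76591226, 17106 bp), at 2.37 CpGs per 100 bp, had 6 regions with 2, 3 and 2 peaks in control and 2, 2 and 1 in treated samples, none of them called in all 6. The other 8, in Onecut2, Pura, Strbp, Lpp, Eif2c3, Gm608, Tnrc6b and Zfp704, are last exons that are mostly untranslated. Onecut2 had 1 region, called in all 6 samples, in 284 eligible bases, Gm608 had 2 regions in 5406, and Pura had 0 in 963 eligible bases at 8.41 CpGs per 100 bp.

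Gene families were read against the 41.8% of all genes that held a coding-exon region and the 15.8% that held one called in all 6 samples, with no test. This share rises with eligible CDS, so long genes hold a region more often. Regions per kb, pooled over a list, were 0.493 for all genes, 0.654 for TGF-β signalling, 0.315 for the collagens and 0.472 for Notch receptors. They were 0.776 for mesangial and pericyte, 0.548 for podocyte and tubule and 0.583 for DNA methylation genes. Zfp genes had 0.383, clustered protocadherins 0.449, Hox genes 0.414, ribosomal proteins 0.489 and olfactory receptors 0.0628. The lists also differed in CpG density. Median CpGs per 100 bp were 2.44 over all genes, 3.57 in mesangial and pericyte genes and 3.50 in TGF-β signalling. Notch receptors, with fewer regions per kb than all genes, had 3.46. The part of CpG density in these values was not tested. Of 22 genes of TGF-β signalling, 16 held a region and 8 held one called in all 6 samples. Among them were Tgfb2, a ligand, with both of its regions called in every sample, Acvrl1, a type I receptor, with 1 of 1, Smad4, the common mediator SMAD, with 2 of 3, and Ltbp1, which binds latent TGF-β in the matrix, with 2 of 2. Tgfb2 had 2 coding-exon peaks in each of the 6 samples. Of 12 fibrillar and type IV collagens, matrix proteins with many short exons, 8 held a region and 4 held one called in all 6. Eligible CDS was 4.99 kb at the median in these collagens and 1.05 kb over all genes, and their regions per kb were fewer. Col4a1 had 0, 1 and 2 coding-exon peaks in control and 2, 1 and 1 in treated samples, and Col4a2 had 1, 1 and 3 against 0, 2 and 0. All 4 Notch receptors, with 7.09 kb of eligible CDS at the median, held a region, 13 in all, but none was called in all 6 samples. Notch3 had 0, 0 and 3 peaks in control and 0, 1 and 0 in treated samples.

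Of 26 giant modular proteins, 24 held a region and 16 held one called in all 6, and with 13.4 kb of eligible CDS at the median their 0.431 regions per kb lay below the 0.493 of all genes. Pclo, a scaffold of the presynaptic active zone, had 4 of 5 regions called in all 6 samples. At the other end stood the olfactory receptors, intronless genes with 0.690 CpG per 100 bp at the median, of which 33 of 1080 (3.06%) held a region and 9 held one called in all 6, among them Olfr215 and Olfr221. Zinc finger genes named Zfp held regions in 156 of 335 gene models and clustered protocadherins in 15 of 24. Hox genes, the CpG-richest list at 7.35 per 100 bp, held regions in 9 of 40 gene models. Hoxa11 had a region called in all 6 samples, and Hoxa10, at 8.79 CpGs per 100 bp, had none. Cytosolic ribosomal proteins held regions in 18 of 80 genes, with short coding sequences (0.400 kb eligible at the median).

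Of 14 writers, erasers and readers of DNA methylation, 11 held a region and 6 held one called in all 6. Tet2 and Tet1, which oxidise methylcytosine, had 3 of 5 and 2 of 3 regions called in all 6 samples, Mbd2, which binds methylated CpG, 2 of 3, and Dnmt1, the maintenance methyltransferase, 1 of 3. Of 10 mesangial and pericyte genes 8 held a region, with 1 called in all 6 samples in Pdgfra and Pdgfrb, the receptors of platelet-derived growth factor. Of 13 podocyte and tubule genes 7 did, with Cubn, an endocytic receptor of the proximal tubule, at 4 of 6 called in every sample. Of 33 gene models of the genes that the study lists as changed in methylation and expression, a list chosen on these samples and so no independent evidence, 24 held a region and 4 held one called in all 6 (Mllt4, Col4a1, Hadha and Tex9). Their eligible CDS was 1.995 kb at the median, against 1.047 kb over all genes. Per kb they had 0.522 regions, close to the 0.493 of all genes. The share with a region called in all 6 samples was 12.1%, against 15.8% of all genes.

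The 10 coding-exon regions with the highest mean fold enrichment among those called in all 6 samples had adjusted p of 0.9991 or more in the limma comparison of the groups. In unscaled pileup the groups overlapped at 8 of them, and at the other 2, in Gnai1 and Slc2a13, every treated sample was above every control sample. In exon 2 of Rab22a, a small GTPase of endosomes (region chr2:173486739-173487234), the pileup was 44, 38 and 51 extended reads in control and 39, 47 and 61 in treated samples, and the mean fold enrichment was 16.4 ± 1.87 (SD, n = 6). In exon 11 of Aff4, a scaffold of a transcription elongation complex (chr11:53213406-53213885), it was 15.6 ± 1.65, and in exon 6 of Ercc6, which acts in transcription-coupled DNA repair (chr14:33354133-33354690), 14.8 ± 1.37. The pileups of the groups overlapped in these 3 regions. The next 7 were Cdrt4, Dnaja2, Ythdc1, Gnai1, Alx1, Trp53bp2 and Slc2a13, at 14.2 to 14.7, of which Gnai1, an inhibitory G protein subunit, had pileups of 29, 48 and 52 in control and 54, 60 and 64 in treated samples, unscaled for depth. The limma log2 fold changes of these 10 regions, after centring on the sample median, ran from -0.21 to 0.28.

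To ask whether TGF-β1 changed the signal in coding exons, log2 of the highest pileup was compared by limma over the 41744 regions of the series called in all 6 samples, of which 4002 hold coding-exon peaks. No coding-exon region had an adjusted p below 0.05 (the count is 0, and the smallest adjusted p was 0.9991), and 0 passed the thresholds of the study. The largest absolute log2 fold change among the 4002 was 0.756. Regions that lost or gained a call were not in this fit, so it could hardly hold a change past the study's fold-change cutoff. At an unadjusted p below 0.05 there were 156 coding-exon regions (3.90%), against 4.18% of all regions fitted, 89 of them higher in treated samples (background 1.96%) and 67 lower (background 2.22%). The share was close to the background and reads as no result about coding exons. The balance of directions turned with the scaling: on pileup per 1000000 reads 25 were higher and 187 lower, while with regions of at least 3 samples admitted there were 245 higher and 111 lower ones. Without control replicate 1 the count was 259, with a smallest adjusted p of 0.1224, and without control replicate 3 it was 237.

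Ugt1a1, in whose exon 5 the smallest p among higher coding-exon regions lay, encodes a glucuronosyltransferase that clears bilirubin, and this last exon is shared by the genes of the Ugt1a cluster. The pileups there were 25, 25 and 30 extended reads in control and 48, 55 and 54 in treated samples. All treated samples were above all control samples (log2 fold change 0.75, SE 0.18, limma adjusted p = 0.9991). On fold enrichment over the local background, used instead of the pileup, its log2 difference was only 0.33. In exon 5 of Ankmy1 (chr1:94784952-94785394) the pileups were 14, 17 and 28 against 39, 35 and 37, and in exon 3 of Cobll1, an actin-regulating protein (chr2:64988798-64989315), 11, 14 and 13 against 24, 24 and 24. The groups did not overlap at either. The other 2 higher regions, in Gm2833 and B020018G12Rik, lie in repeated sequence. Every 49 bp window of the Gm2833 region, the length of a read, occurs elsewhere in the mm9 genome, and so do 15.97% of those of the B020018G12Rik region, so their reads cannot be tied to 1 place by a single read, and their values are uncertain.

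Among lower regions the smallest p lay in exon 4 of Adamts16, a secreted metalloprotease (chr13:70939520-70939938). The pileups were 24, 21 and 31 in control and 16, 14 and 23 in treated samples, so the groups overlapped before centring (log2 fold change -0.76, SE 0.22, limma adjusted p = 0.9991). In exon 9 of Mthfd1l, an enzyme of mitochondrial folate metabolism (chr10:6330764-6331182), they were 33, 33 and 31 against 23, 25 and 28, with no overlap (log2 fold change -0.58). The other 3 lower regions lay in Galnt2, a glycosyltransferase that starts mucin-type sugar chains, with 46, 46 and 53 against 44, 32 and 42, in Asap2, a regulator of Arf GTPases, with 15, 21 and 15 against 12, 10 and 16, and in Uck1, a pyrimidine nucleoside kinase, with 26, 18 and 34 against 18, 19 and 19. In Galnt2 the groups did not overlap, and in Asap2 and Uck1 they did. Of the 34 named regions, 31 had no 49 bp window that occurs elsewhere in the genome, Uck1 being the third exception at 5.76%.

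**Figure D5:**
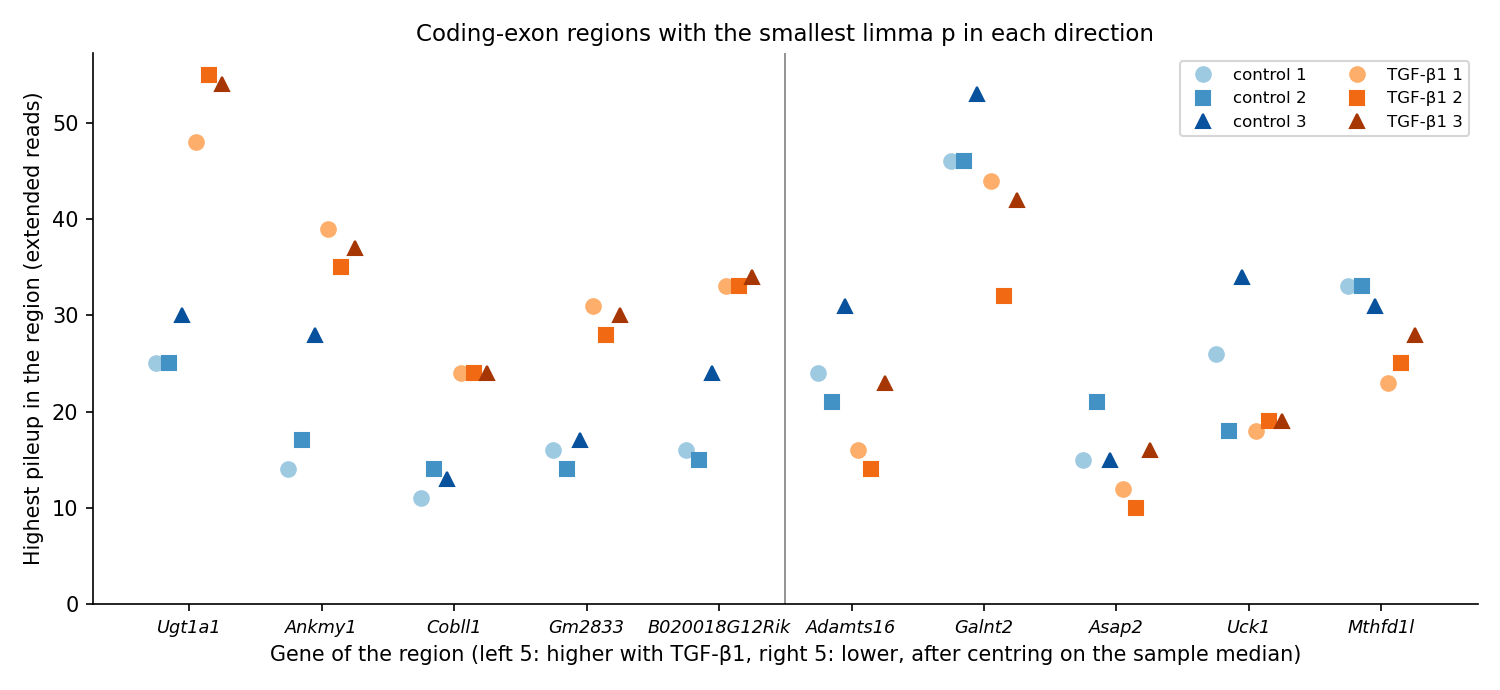
Highest pileup in the region, in extended reads and not scaled for depth (vertical), of the 5 coding-exon regions ranked first by limma p in either direction (horizontal), with 1 point per sample. On the left all treated samples lie above all control samples, as in Ugt1a1 with 48 to 55 against 25 to 30 reads, while on the right the groups overlap in Adamts16, Asap2 and Uck1.

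Regions called in all samples of 1 group and in none of the other were few. There were 118 coding-exon regions called in all 3 TGF-β1-treated and no control samples, 0.793% of coding-exon regions against 0.948% of all regions of the series, and 31 with the reverse pattern, 0.208% against 0.233%. Both shares were close to those of all regions. Counted over coding-exon peaks joined alone, the reverse pattern was found in 32. A sample without a call did not pass the threshold, which does not show that its signal was 0.

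The highest pileups among the former lay in exon 10 of Pcnxl2, a pecanex-like membrane protein (chr8:128386847-128387192), with 38, 35 and 26 extended reads in TGF-β1 replicates 1, 2 and 3. Also among the highest were Sar1a, a GTPase of vesicle budding from the endoplasmic reticulum, Klraq1 and Pxdn, a peroxidase that cross-links type IV collagen, with mean pileups of 31.3 ± 2.52, 29.3 ± 1.53 and 29.3 ± 4.62 (SD, n = 3). Fold enrichments in these 4 regions were modest, with means from 4.38 to 5.61. The highest among regions called in control samples alone lay in exon 25 of Ubr2, a ubiquitin ligase of the N-degron pathway (chr17:47098389-47098712), with 25, 28 and 30 reads in control replicates 1, 2 and 3. Exon 11 of Polr3c, a subunit of RNA polymerase III (chr3:96519079-96519374), had 21, 21 and 26. Wisp3, a matricellular CCN protein, Usp5, a deubiquitinase, and Plekhb2 followed, with mean pileups of 22.3 ± 4.04, 22 ± 4 and 21.7 ± 2.52. All of these named regions lay in internal exons. With only peaks of at least 5-fold enrichment, all 3 samples of the group had a peak in Sar1a, Klraq1, Polr3c and Usp5, 2 did in Pxdn and Ubr2, 1 did in Pcnxl2 and Wisp3, and 0 did in Plekhb2.

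Gja4 and Klf7 are the genes whose second exons the study singles out. From read densities, it reported lower methylation after TGF-β1 in that exon of Gja4 and higher methylation in that of Klf7. In exon 2 of Gja4, the connexin 37 gene (chr4:126989043-126989440), a region was called in control replicates 2 and 3 with 17 and 24 extended reads and in TGF-β1 replicates 1 and 2 with 17 and 20, and a further region of that exon (chr4:126989748-126990188) in control replicate 3 alone with 18. The first of these regions was thus called in 2 samples of either group and the second in 1 control sample. In Klf7, a zinc finger transcription factor, exon 2 held a region called in TGF-β1 replicate 1 alone with 18 reads (chr1:64125628-64125931), and exon 3 a region called in TGF-β1 replicates 1 and 2 with 30 and 24 reads (chr1:64088774-64089106). Neither gene had a coding-exon region called in all samples of a group. Peak calls do not give the reads of samples without a call, so they cannot decide on the changes that the study reported.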

How the data were processed

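MeDIP-seq peak lists of 3 control and 3 TGF-β1-treated samples were analysed, grouped by their labels. Per the file headers and the methods of the study, the authors kept uniquely mapped reads on mm9 and called peaks with MACS2 2.1.0.20150731 in each sample separately, at a q cutoff of 0.01 and without input. The deposited pileup is a signal, the number of extended reads at the summit, not scaled for depth. The deposited fold enrichment is a ratio of that pileup to the background of the same sample, and p- and q-values were deposited as -log10. Reads outside called peaks were not used here, so the read-count test of the study was not repeated. Each list rests on 9407103 to 13291419 reads, which limits the precision of its calls.

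Summits were placed with the protein-coding transcripts of GENCODE vM1 on NCBIM37, the same assembly as mm9. Where transcripts overlapped, the one with the longest CDS gave exon and gene, and 98 coding-exon peaks (0.223%) lay in the CDS of more than 1 gene. Joining was checked with bedtools 2.31.1. Per-sample values were compared by exact permutation tests (20 ways to split the samples), and gene elements within a sample by sign-flip tests, with Benjamini-Hochberg adjustment. Regions were compared by limma 3.58.1 (lmFit and eBayes with a trend, R 4.3.3) on the highest log2 pileup of a region, centred on the sample median, after a test on simulated data. The study's thresholds, as its methods give them, were a false discovery rate of 0.01 and a log2 fold change of 2 in either direction. Most methylation changes in its list of genes also changed in expression are below 2 in size. Other steps used Python 3.11.15 and pandas 2.3.3. Alternatives were stricter lists (-log10 q or fold enrichment of 5 or more), any overlap with the CDS, 2000 bp from a start, joining up to 200 bp, other scalings and filters, the replicate block and leaving out each sample.

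Named genes and regions followed a rule: the 10 genes with the most regions called in all 6 samples, the 5 with the most per kb among those with at least 3 kb, the 10 longest exons, the 5 regions with the smallest limma p and the 5 with the highest pileup among regions called in 1 group, each in both directions, the 10 with the highest mean fold enrichment, up to 4 members of each of 13 gene lists, and Gja4 and Klf7. The members and lists were chosen with earlier results of these data known. Peaks on chromosomes X and Y and on unplaced sequence were left out. 1 region that the rule names is not reported here.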

Additional observations from a re-analysis of the deposited data

How the results depend on the processing

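The differences between the groups changed direction under several alternatives, and none of their exact tests passed a threshold. The difference in the number of coding-exon peaks (796, TGF-β1 minus control) was -64.68 per 1000000 reads and from -197.3 (without control replicate 1) to 1660 when 1 sample was left out. The difference in the share of all peaks (0.01004 percentage points) ran from -0.753 (without control replicate 1) to 0.563, with -0.452 without TGF-β1 replicate 2, and that in the last exon (0.195 percentage points) from -0.193 (without TGF-β1 replicate 2) to 0.676, with -0.0235 without control replicate 1. That in median exon length (-1.17 bp) ran from -4.83 to 2.42 bp (without TGF-β1 replicate 3), with 1.67 bp without control replicate 3, and that in peaks per gene from 0.0121 to 0.0780. With 3 samples against 3, these tests cannot reach a p below 0.1.

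With the replicate number as a block, these 5 differences were 796, 0.01004, 0.195, -1.17 and 0.0451 (exact sign-flip p of 0.75, 1, 1, 1 and 0.5, smallest possible 0.25), and limma had 142 coding-exon regions at an unadjusted p below 0.05 in place of 156. Same-numbered samples did not deviate together in coding-exon regions (r of -0.0763, 0.0418 and -0.208). So few correlations cannot show whether same-numbered samples shared a culture or a batch. The limma count was 356 among regions called in at least 3 samples, where more regions were tested, and 115 to 259 when 1 sample was left out.

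The share of coding-exon regions called in all 6 samples (26.9%) was 24.0% at a fold enrichment of at least 5, 27.9% when peaks up to 200 bp apart were joined, and 28.4% to 36.0% of 5-sample calls when 1 sample was left out. Against promoter peaks, the comparisons of fold enrichment (0.0624) and peak length (3 bp) in peaks enriched at least 5-fold were in the same direction and past the threshold no longer. The share called in all samples, which is not independent between files, differed by 2.53 percentage points at 2000 bp. The cause was not tested. With 1 sample left out, no sign-flip test can go below 0.0625; the differences against intron and promoter peaks then ran from 0.204 to 0.228 and 0.105 to 0.130 for fold enrichment, 0.139 to 0.164 and 0.178 to 0.195 for pileup per 1000000 reads, 12 to 12.8 and 3 to 3.4 bp for length, 1.74 to 1.83 and 0.803 to 0.819 for CpGs, 3.4 to 3.9 and 1 to 1.2 percentage points for GC, and -1.01 (without control replicate 1, with -0.000438 without TGF-β1 replicate 3) to 2.13 and 1.83 to 2.49 percentage points for the share in all samples.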
